A study of Mus musculus with 16 samples.

Results

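The 5 libraries described here were made from adult cardiomyocytes of control mice that had been kept for 24 h with vehicle (0.1% DMSO), and are called control vehicle libraries. They were chosen by their labels and are 5 of the 16 libraries of a study that asked whether linagliptin, an inhibitor of dipeptidyl peptidase-4, acts on heart muscle cells directly. The other 11 libraries came from control cells with 9 nmol/L linagliptin and from cells of DM-HFD mice with linagliptin or vehicle, and no group is compared with another here. The control mice were C57BL/6 animals of about 8 weeks that were neither diabetic nor fed a high fat diet, and the cells were adult heart muscle cells freed from the tissue and held in primary culture. The sources do not say whether the 5 libraries came from 5 mice, so the SD between them may be partly technical. Polyadenylated RNA was sequenced, and abundance was given as FPKM, the number of fragments of a transcript scaled to its length and to the number of fragments mapped in the library. The tables listed 11631 genes and 23055 of their transcripts, all of which were used for these libraries.

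A heart muscle cell spends most of its ATP on the sliding of myosin along actin in the sarcomere and on pumping Ca2+ back into the sarcoplasmic reticulum after each beat. That ATP comes almost wholly from oxidative phosphorylation, fed mainly by fatty acids, and part of the machinery is encoded by the circular genome of the mitochondrion itself. An adult heart also holds endothelial cells, fibroblasts, pericytes, smooth muscle cells and macrophages, and a preparation of its muscle cells always keeps some of them.

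The FPKM of a library summed to between 315152 and 344908, and its median gene lay between 4.66 and 5.14 FPKM. Between 31 and 41 genes were listed at 0 in a library, and between 9861 and 10136 reached 1 FPKM. All 21 genes fixed as defining markers of cardiomyocytes were listed, from the myoglobin gene Mb at 3643 FPKM to the transcription factor gene Tbx5 at 5.57 FPKM, with a median of 334.0. The label of the cells was thus borne out by their markers, which took 4.36% ± 0.147 (SD, n = 5) of the FPKM. The Y-linked helicase gene Ddx3y had 15.8, 17.0, 23.3, 17.2 and 19.6 FPKM, so that RNA of male cells was present in each library. The study states 1 sequencing depth for its RNA libraries, but the number of reads behind a value is not in the tables, and the precision of each value is therefore given by the 5 libraries alone.

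The ranking was led by the mitochondrial genome. The 11 highest genes were all mitochondrially encoded, and the first nuclear gene, Mb, stood at rank 12. mt-Co1, the catalytic subunit of cytochrome c oxidase (GRCm38, chromosome M, 5328 to 6872), had 19274, 20384, 22111, 23944 and 20852 FPKM in replicates 1 to 5. Its mean of 21313 ± 1788 (SD, n = 5) was 6.43% of the mean FPKM of all genes. The complex I subunits mt-Nd1 and mt-Nd2 followed with 14928 and 13723 FPKM, and mt-Cytb of complex III had 13262. Subunits mt-Co3 and mt-Co2 of cytochrome c oxidase had 10695 and 10629 FPKM and lay closer to each other than their SD of 600.0 and 566.3.

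Not all mitochondrial mRNAs had equal FPKM. Polyadenylated RNA was selected, and how well each of these mRNAs was captured was not tested, so FPKM may not follow their abundance. mt-Nd4 had 10454 FPKM, mt-Nd5 6407, mt-Nd4l 4569 and mt-Nd3 4439, all of them complex I subunits. mt-Nd6 is the only one of the 13 protein genes read from the other strand of the mitochondrial genome, and it had 361.1, 521.4, 708.7, 511.9 and 627.7 FPKM, which put it at rank 40. mt-Atp8 and mt-Atp6, subunits of the ATP synthase, were listed at 7961 and 1525 FPKM although they are carried by a shared RNA and their coordinates overlap by 43 bases. Their separate values, and those of mt-Nd4 and mt-Nd4l, which overlap by 7 bases, are therefore uncertain. mt-Nd3 varied most, with 4177, 5906, 4348, 2552 and 5213 FPKM, and replicate 4 was the lowest.

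Few genes held most of the FPKM. The 10 highest genes took 34.4% of it and the 100 highest 52.4%, and 76 genes held 50%. Of the genes with at least 1000 FPKM, 12 were mitochondrial and 10 nuclear. Without the mitochondrial genes the distribution was flatter: the 10 highest nuclear genes held 8.39% of the nuclear FPKM, and 437 genes were needed for 50%. At the other end, 445 of the listed genes had a mean under 0.5 FPKM in these libraries.

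**Figure D1:**
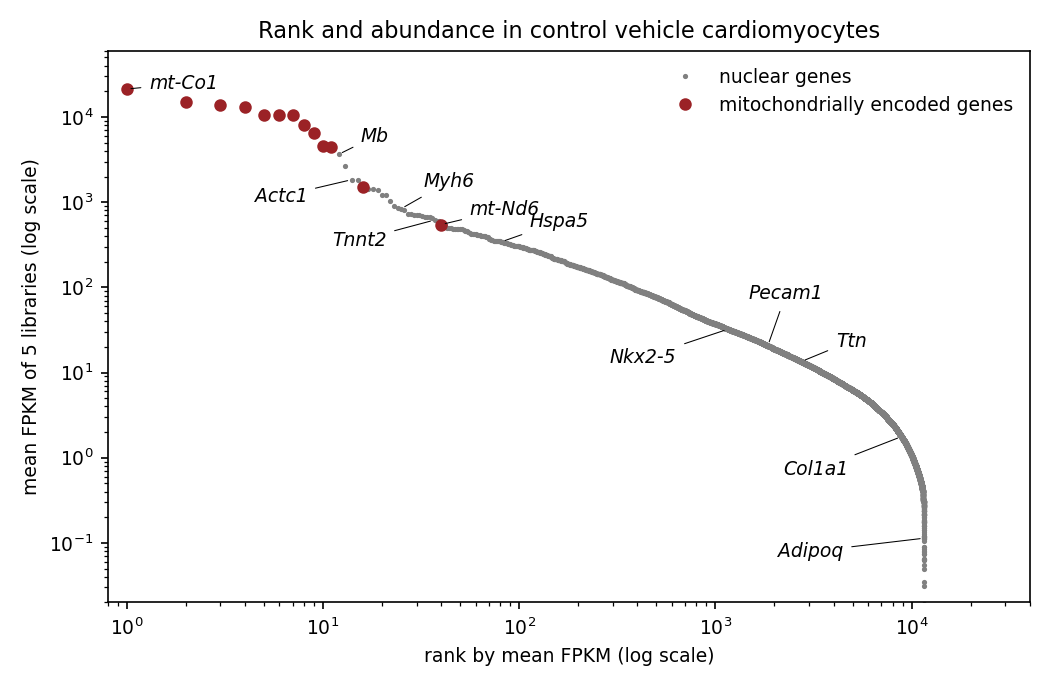
Mean FPKM of the 5 control vehicle libraries (y axis, log scale) against the rank of the gene (x axis, log scale), with mitochondrially encoded genes in red and nuclear genes in grey. The red points fill ranks 1 to 11, and mt-Atp6 and mt-Nd6 follow at ranks 16 and 40. Marker genes of other cells, such as Pecam1 of endothelial cells and Adipoq of fat cells, lie far to the right.

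The nuclear ranking was led by genes of oxygen storage, contraction and energy supply. Mb, which stores oxygen (chromosome 15, 77015489 to 77050670), had 3285, 3508, 3628, 3872 and 3921 FPKM. Ankrd1, a stretch-responsive protein of the I-band and nucleus, came next with 3038, 3430, 2632, 1317 and 3014 FPKM. Replicate 4 had the lowest Ankrd1 value, whereas Mb stayed within 1.19-fold between the lowest and the highest library. Cardiac actin Actc1 had 1838 ± 135 FPKM and Fth1, the heavy chain of the iron store ferritin, 1835 ± 182 (SD, n = 5 each), values that differed by far less than either SD.

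The sarcomere filled many of the next places. The regulatory and essential light chains of ventricular myosin, Myl2 and Myl3, had 1428 ± 135 and 1226 ± 88.0 FPKM, and the Ca2+ sensor of the thin filament, Tnnc1, had 1227 ± 110. The heavy chain Myh6, the motor of the adult mouse ventricle, had 914.4, 743.3, 914.1, 969.7 and 648.1 FPKM, and the inhibitory troponin Tnni3 had 813.3 ± 91.8. The troponin that binds tropomyosin, Tnnt2, had 617.6 ± 60.0 FPKM, and tropomyosin Tpm1 597.0 ± 62.8. Myosin binding protein C, Mybpc3, stood at 273.7 and alpha-actinin 2, Actn2, at 273.4 FPKM.

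Genes of energy supply were placed among them. Cox6a2 and Cox6b1 of cytochrome c oxidase had 1415 ± 130 and 714.3 ± 94.2 FPKM, and Usmg5, a small subunit of the ATP synthase, had 1024 ± 124. The catalytic core of that enzyme, Atp5a1 and Atp5b, had 718.6 ± 122 and 709.3 ± 105 FPKM. Fabp3, which carries fatty acids through the cytosol, had 1383 ± 91.4, the mitochondrial creatine kinase Ckmt2 897.7 ± 147, and the adenine nucleotide carrier Slc25a4 866.5 ± 84.1. Atp2a2, which encodes the SERCA2 Ca2+ pump, had 784.9, 633.3, 815.6, 844.5 and 579.2 FPKM.

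The rest of the 30 highest nuclear genes were Cox8b, Cox7a1, the small heat shock protein gene Hspb7, the autophagy receptor gene Sqstm1 and ribosomal protein genes. Cox8b had 707.1 FPKM, Hspb7 696.2, Cox7a1 678.0 and Sqstm1 662.0. The ribosomal protein genes were Rps3a1, Rplp1, Rpl36, Rps15, Rpl17 and Rpl8, between 671.4 and 502.6 FPKM. Reads of ribosomal protein genes can also match their many pseudogenes, so their single values are uncertain.

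The order of genes depended on how gene values were formed. The FPKM of a gene equalled the fragments of its listed transcripts over the length of all its exons merged, to within 10% for 6516 of 8772 genes that could be checked, and never exceeded the deposited value. A gene with long alternative exons was thereby listed lower than the sum of its transcripts, and the median ratio of the sum to the gene value was 1.28. Tnnt2 summed to 4384 FPKM over its transcripts and then led the nuclear genes, ahead of Mb with 4193, Myl2 with 3877 and Tpm1 with 3104. Of the 30 highest nuclear genes, 22 were also among the 30 highest by transcript sums. Atp5g1, a ring subunit of the ATP synthase, moved furthest in rank among the 30 highest by sums, with 111.2 FPKM as a gene, at nuclear rank 327, and 771.6 as a sum, at nuclear rank 28.

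By function, the 13 mitochondrial mRNAs took 36.0%, 37.6%, 37.4%, 36.0% and 34.7% of the FPKM, a mean of 36.3% ± 1.20 (SD, n = 5). FPKM divides by length, so a short transcript weighs as much as a long one, and the share of fragments was lower. Of the fragments that fell in listed transcripts, 16.3% ± 0.518 (SD, n = 5) came from the mitochondrial genome. The 83 nuclear subunits of oxidative phosphorylation took 6.51% ± 0.399 of the FPKM, and 65 of them reached 100 FPKM. The median of this list was 209.2 FPKM, against 4.94 over all genes.

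Sarcomere, Z-disc and M-band genes together took 5.29% ± 0.235 of the FPKM and 7.10% ± 0.171 of the fragments (SD, n = 5). The 11 thick filament genes held 1.18% of the FPKM, the 12 thin filament genes 1.72% and the 45 genes of the Z-disc, M-band and costamere 2.39%. Ankrd1, which is also in the list of transcription factors, was the highest of these 45 genes. The list was lowest in replicate 4 at 1.98%, against 2.42% to 2.58% in the other libraries, and Ankrd1 itself was lowest there. Cryab, a chaperone of desmin, had 480.5 FPKM and the intermediate filament Des 478.9. The 43 genes of calcium handling and excitation took 0.949% ± 0.0645, led by Atp2a2, S100a1, Calr and Hrc, and Pln, which encodes the brake on SERCA2, had 184.0 ± 24.1 FPKM.

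The 171 genes of fuel metabolism took 5.14% ± 0.588 of the FPKM, with 4.55% in replicate 2 and 6.06% in replicate 4. Fatty acid uptake and oxidation was the largest of these lists at 1.67% ± 0.189, with Acadl at 405.9, Acaa2 at 345.9 and Ech1 at 310.5 FPKM besides Fabp3. The citric acid cycle and pyruvate oxidation took 1.17% ± 0.173, with the malate dehydrogenase gene Mdh1 at 438.8 FPKM. Glucose uptake, glycolysis and glycogen took 1.07% ± 0.122, with Ldhb at 476.9 and Aldoa at 397.3 FPKM. Lists for phosphate transfer and for ketones and branched-chain amino acids held 0.960% and 0.271%.

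Protein synthesis and quality control formed the other large block. The 85 cytosolic ribosomal protein genes took 4.27%, 4.88%, 3.80%, 4.20% and 5.60% of the FPKM, and all 85 had a mean of at least 10 FPKM. The 78 mitochondrial ribosomal protein genes took 0.617% ± 0.0408, and 0 of them reached 100 FPKM. Chaperones and heat shock genes took 1.82% ± 0.276 and the proteasome and ubiquitin list 1.18% ± 0.0655. Antioxidant genes took 1.14% ± 0.0928, led by Sod1, the cytosolic superoxide dismutase, with 402.5 FPKM. The 32 cardiac transcription factor genes took 0.924%, nearly all of it Ankrd1, and Nkx2-5 and Gata4 had 32.3 and 25.9 FPKM.

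Genes in no list, 10579 in number, took 31.9% ± 0.585 of the FPKM. Among the higher ones, named after their values were seen, were B2m, the light chain of class I MHC, with 327.7 FPKM, the lysosomal genes Ctsd and Psap with 324.4 and 302.2, and Ndrg2 with 304.8.

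**Figure D2:**
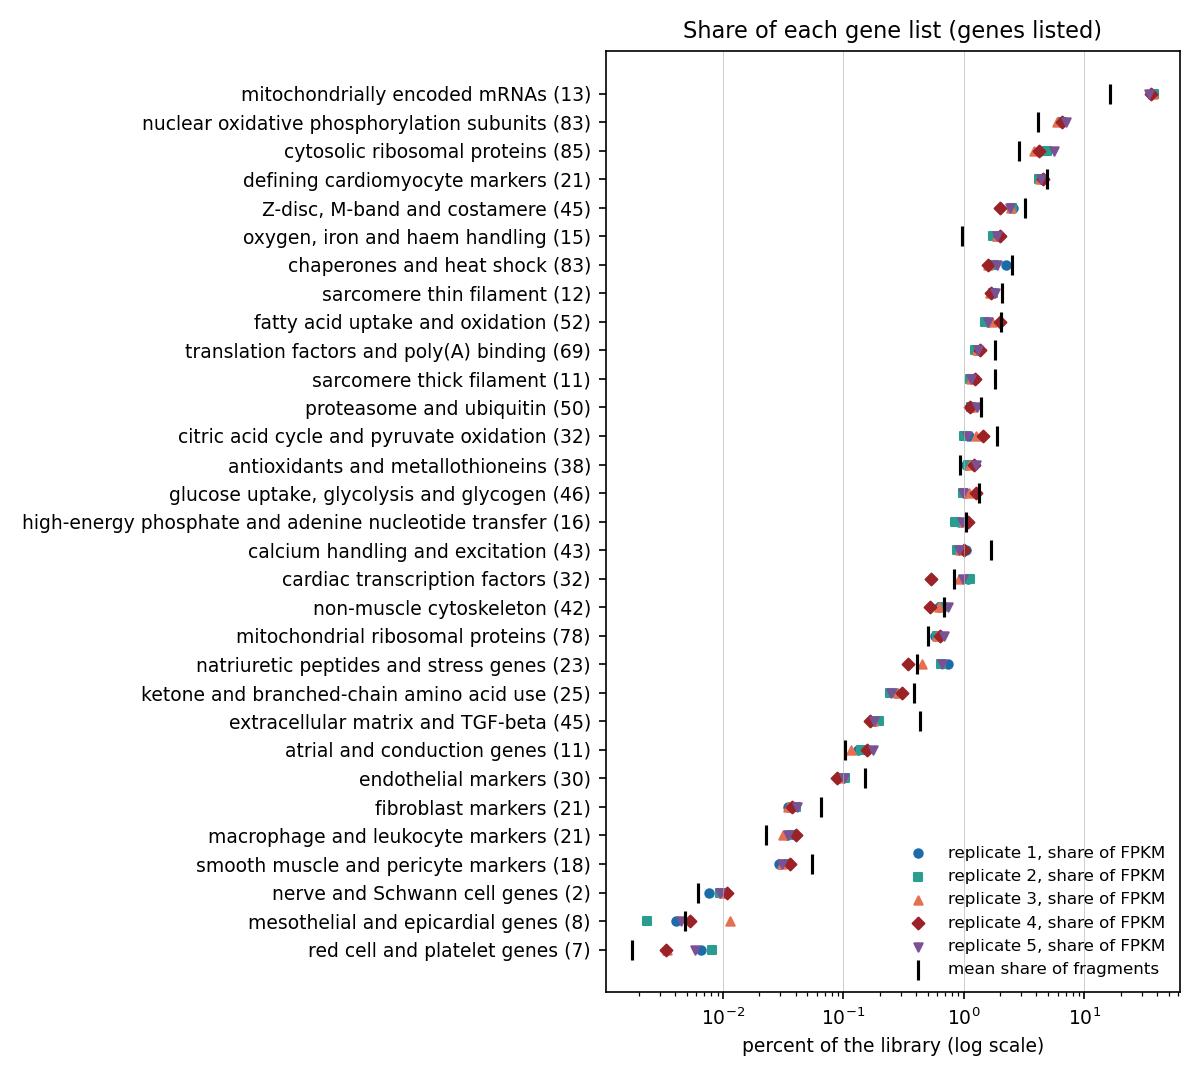
Percent of the library (x axis, log scale) held by each gene list, with the number of listed genes in brackets. Coloured points are the share of FPKM in each of the 5 libraries and black bars the mean share of fragments. The mitochondrial mRNAs lie at 34.7% to 37.6% of FPKM and at 16.3% of fragments, and the lists of other cell types lie below 0.2%.

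Several proteins of muscle come in 2 forms, one of which is enriched in heart or skeletal muscle, and 23 such pairs of genes were compared within the libraries. The heart or muscle form was the higher in every library for 21 pairs. Myh6 made up 95.4%, 95.1%, 96.7%, 97.1% and 96.2% of the sum of Myh6 and Myh7, the slower heavy chain. Actc1 made up 94.8% ± 0.898 of the sum with skeletal actin Acta1, although reads of their near-identical coding parts may be split between them. Myl2 made up 97.6% ± 1.25 of the sum with its atrial counterpart Myl7, and Ckm 98.6% ± 0.262 of the sum with the brain creatine kinase Ckb (SD, n = 5 each).

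Subunits of cytochrome c oxidase differed in how far they leaned. Cox6a2 made up 94.95% ± 0.765 of the sum with Cox6a1, Cox8b 85.0% ± 2.60 of the sum with Cox8a, and Cox7a1 71.7% ± 1.85 of the sum with Cox7a2. In glycolysis, Pgam2, Eno3 and Pfkm made up 92.5%, 93.0% and 94.5% of their pairs, and Ldhb 79.2% ± 2.41. Cpt1b, the muscle form of the enzyme that commits fatty acids to the mitochondrion, had 89.96 FPKM, against 6.88 for the liver form Cpt1a.

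Of the glucose transporter genes, Slc2a4 was the higher in each library, by a margin that varied. Slc2a4, the insulin-responsive GLUT4, had 28.8, 25.6, 23.2, 36.4 and 21.8 FPKM, and Slc2a1, the GLUT1 gene, had 24.0, 22.8, 15.1, 11.8 and 21.7. The share of Slc2a4 thus ran between 50.2% and 75.6% and was highest in replicate 4. Rpl3l, a ribosomal protein of striated muscle, had 73.2 ± 7.30 FPKM and its general form Rpl3 had 85.2 ± 13.4, and their order changed between libraries.

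Markers of other cells were low, and in bulk RNA fewer cells of a type cannot be told apart from less RNA per cell. Without matrix and atrial genes, the lists of other cell types summed to 0.211% ± 0.0107 (SD, n = 5) of the FPKM. The 30 endothelial markers that were listed held 0.0951% ± 0.0068, and their summed FPKM ran between 285.6 and 348.9. Their highest members were Fabp4 at 37.3, Ly6a at 32.6, Eng at 31.3 and Cdh5, the endothelial cadherin, at 30.7 FPKM. Pecam1 had 18.9, 24.6, 20.6, 18.2 and 21.0 FPKM and Nos3, the endothelial nitric oxide synthase, 2.73, 2.78, 2.57, 1.52 and 2.11. Fabp4 is also made by other cells.

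The 21 fibroblast markers held 0.0377% ± 0.00327 of the FPKM and 11 of them had a mean under 1. Vim, which many mesenchymal cells make, led with 43.3 FPKM, whereas the defining genes Pdgfra and Tcf21 had 2.097 and 0.592. Collagen I was near these, with Col1a1 at 1.77 and Col1a2 at 2.14 FPKM. Among the higher matrix genes were Col4a1 and Col4a2 of the basement membrane at 60.6 and 56.0.

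Smooth muscle and pericyte markers held 0.0325%. Acta2 had 37.1 FPKM, but the defining smooth muscle genes Myh11 and Cnn1 had 1.03 and 0.118, and Cnn1 was at 0 in 1 library. Of 31 leukocyte markers fixed, 21 were listed and held 0.0357%. Lyz2, lysozyme of macrophages, had 39.4 FPKM and Cd68 13.5, while Csf1r and Adgre1 had 1.501 and 1.557 and the neutrophil gene S100a9 was at 0 in all 5 libraries. Adipocyte genes were nearly at 0, with Adipoq at 0.114 FPKM, and the haemoglobin genes that were listed reached at most 6.57 FPKM, for Hbb-bs.

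Some of these lists differed between libraries. The atrial light chain gene Myl7 had 21.4, 21.6, 20.04, 58.3 and 51.4 FPKM, and Myl4, the other atrial light chain, 4.68, 3.98, 3.06, 12.1 and 9.70. For both genes replicates 4 and 5 were the high ones. Nppa, the atrial natriuretic peptide gene, had 250.2, 319.9, 204.0, 315.8 and 401.1 FPKM. The mesothelial genes Krt18 and Msln had their highest values in replicate 3, with 7.98 and 7.55 FPKM, against at most 3.88 and 3.43 in the others.

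**Figure D3:**
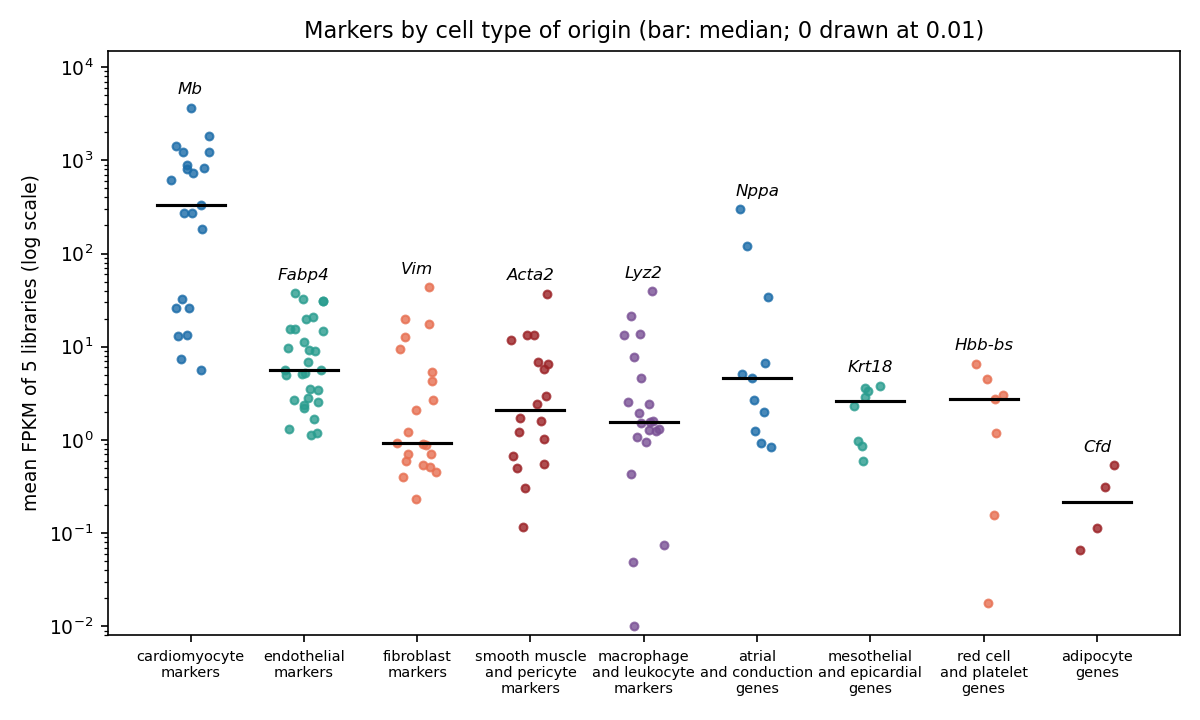
Mean FPKM of 5 libraries (y axis, log scale) for each listed marker, grouped by the cell type it marks. The bar is the median of the group and the highest gene is named. Cardiomyocyte markers have a median of 334.0 FPKM, endothelial markers 5.67 and fibroblast markers 0.936.

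Replicates were close for most genes. For the 10119 genes whose mean reached 1 FPKM, the coefficient of variation (CV, the SD over the mean) had a median of 15.0%. It was under 10% for 2269 genes and over 50% for 214, which is 2.11%. The median CV was 17.3% for genes of 1 to 5 FPKM and 8.92% for the 22 genes of 1000 FPKM or more. Pearson's r of log2(FPKM + 1) across these genes, which are not independent replicates, ran between 0.963 for replicates 4 and 5 and 0.987 for replicates 1 and 2. Replicates 3 and 4 had 0.984 with each other and 0.963 to 0.978 with replicates 1, 2 and 5. Among replicates 1, 2 and 5 it was 0.981 to 0.987. Genes below that set replicates 3 and 4 apart may share this grouping, and its source was not tested.

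The libraries also leaned by transcript length. Among 1544 genes whose merged exons exceed 8000 bases, the median of log2(FPKM over the mean of the 5 libraries) was 0.13 in replicate 3 and 0.11 in replicate 4, and -0.22 in replicate 5. Among 216 genes of up to 1000 bases it was 0.23 in replicate 5 and -0.17 in replicate 3. A pair of very long cardiac genes were likewise highest in replicates 3 and 4 and lowest in replicate 5. Ttn, the giant spring of the sarcomere, had 10.6, 8.93, 18.9, 22.1 and 6.71 FPKM, and Ryr2, the Ca2+ release channel, 24.3, 19.2, 31.5, 40.1 and 14.8. The part of length in these values was not tested.

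The 10 genes of highest CV among the 3499 with at least 10 FPKM were Gm42417, Pdia4, Rbm15b, Pdk4, Creld2, Sdf2l1, Ddit3, Hyou1, Cxcl1 and Hsp90b1. Of these, 6 belong to the response to unfolded proteins in the endoplasmic reticulum. In that response the sensors Atf6, Ern1 and Eif2ak3 detect misfolded proteins, and transcription of chaperones, of disulfide isomerases and of the factor gene Ddit3 follows. Pdia4, a disulfide isomerase, had 427.1, 199.1, 30.6, 25.2 and 161.2 FPKM, a CV of 97.2%. Hsp90b1, the chaperone GRP94, had 833.7, 517.1, 130.4, 115.7 and 458.5. Hspa5, the chaperone BiP, had 476.4, 271.5, 198.9, 163.7 and 600.7.

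Replicate 1 was the high library for nearly all of these genes, and replicates 3 and 4 were the low ones. Creld2 had 305.9, 164.2, 22.1, 19.03 and 155.5 FPKM and Ddit3 342.4, 180.3, 42.8, 37.8 and 143.1. The lectin chaperone Calr had 600.3, 403.5, 159.7, 159.8 and 405.0. Of 30 genes of this response, a list chosen after the spread was seen, replicate 1 was highest for 26, against 11.7% of the 10119 genes. Replicate 3 or 4 was lowest for 25 of the 30, against 32.6% of the 10119 genes. The 30 genes summed to 5726, 3600, 1686, 1463 and 3711 FPKM.

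Other genes of the response varied less. Canx, the membrane-bound partner of calreticulin, had a CV of 7.59%, and Asns, the asparagine synthetase gene, 4.64%. The sensor genes Atf6, Ern1 and Eif2ak3 had a CV of 13.4%, 19.3% and 19.6%, and Atf4 of 21.3%. Xbp1 varied more, with 42.0, 40.0, 31.1, 14.4 and 16.04 FPKM, a CV of 45.2% and an order of libraries unlike that of Pdia4.

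The promoters of several of these genes carry a shared element, searched for after the spread of the 30 genes was seen and shown here so that the letters can be read beside each gene's values. The motif searched was CCAAT, any 9 bases and CCACG, known as the ER stress response element, on both strands of the window from 250 bases before to 50 after each start site in RefSeq, build GRCm38.p6. Of the 30 genes, 27 had a window in the table and 8 of these held a match, or 29.6%, against 13 of 7952 genes with a mean of 1 FPKM or more and a window, or 0.163%. Stress genes that reach 1 FPKM and have a window are among these 7952, so their matches count in both shares. Of all 32851 windows, 0.119% held a match. The genes and the motif were both chosen for this response, so the difference between these shares is no test. A match is a description of the sequence and not proof of a bound site. Whether the element has a part in the spread between libraries was not tested. The lines below give 5′ to 3′ on the strand of the gene, with the motif in capitals, and CGTGG with ATTGG marks a match on the opposite strand.
Hspa5, chr2:34771995-34772073, plus strand: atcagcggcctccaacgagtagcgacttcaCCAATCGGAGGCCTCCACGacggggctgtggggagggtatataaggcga
Hsp90b1, chr10:86705503-86705686, minus strand: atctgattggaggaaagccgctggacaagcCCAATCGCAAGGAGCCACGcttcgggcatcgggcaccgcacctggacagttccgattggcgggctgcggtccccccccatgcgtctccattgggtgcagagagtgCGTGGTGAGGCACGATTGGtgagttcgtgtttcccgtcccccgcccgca
Calr, chr8:84847045-84847123, minus strand: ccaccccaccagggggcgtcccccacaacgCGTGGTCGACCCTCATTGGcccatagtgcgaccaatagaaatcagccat
Canx, chr11:50325770-50325848, minus strand: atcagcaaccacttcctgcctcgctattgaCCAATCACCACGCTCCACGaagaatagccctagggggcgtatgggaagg
Pdia6, chr12:17266461-17266539, plus strand: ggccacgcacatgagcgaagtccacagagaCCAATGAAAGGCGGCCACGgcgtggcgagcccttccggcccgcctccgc
Dnajc3, chr14:118937797-118937875, plus strand: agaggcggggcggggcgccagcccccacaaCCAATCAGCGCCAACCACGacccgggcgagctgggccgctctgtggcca
Creld2, chr15:88819490-88819568, plus strand: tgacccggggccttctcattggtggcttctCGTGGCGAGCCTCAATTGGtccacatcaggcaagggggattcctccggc
Syvn1, chr19:6046502-6046580, plus strand: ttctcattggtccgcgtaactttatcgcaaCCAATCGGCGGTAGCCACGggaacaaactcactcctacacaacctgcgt

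The 8 genes with a match did not vary alike. Hsp90b1, with 2 matches, had a CV of 72.8%, Dnajc3, a co-chaperone of BiP, 70.9%, and Syvn1, a ubiquitin ligase of the reticulum, 67.5%. Canx, with 1 match, had 118.0, 105.9, 101.3, 97.2 and 102.1 FPKM. Pdia4, which varied most of the 30 genes, had none of these letters in its window.

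Replicates 3 and 4 also held the highest or the lowest values, though not always apart from the others, for the following metabolic, stretch-related and chemokine genes. Pdk4, the kinase that restrains pyruvate oxidation, had 48.9, 47.4, 158.6, 293.4 and 48.1 FPKM, so that replicates 3 and 4 were high. Angptl4, like Pdk4 a target of fatty acid-activated receptors, had 5.24, 5.76, 17.5, 23.2 and 15.6, with replicate 5 close to replicate 3. Nppb, the gene of B-type natriuretic peptide, had 258.6, 405.6, 169.1, 31.3 and 320.6 FPKM, and replicate 4 stood lowest as it did for Ankrd1. For Nppb, replicate 3 lay nearer to replicate 1 than to replicate 4. The chemokine gene Cxcl1 had 40.1, 23.7, 8.00, 6.01 and 53.0 FPKM.

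A pair of the 10 cannot be read on their own. Gm42417, with 1.33, 0.972, 42.3, 27.8 and 0.510 FPKM, lies over Ankrd23 and in part over Ankrd39 on the same strand of chromosome 1. Rbm15b, with 31.8, 13.5, 3.46, 2.42 and 11.6 FPKM, lies wholly within the annotated span of Manf, a gene of the same stress response with 84.3, 69.1, 23.8, 17.4 and 54.1. Reads shared by overlapping genes cannot be assigned with certainty.

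The 10 genes of lowest CV were Map2k4, Lclat1, Tmem184c, Pcbp2, Fam114a2, Mrpl44, Nfyc, Asnsd1, Ppp3ca and Actr1b. Map2k4, a kinase of the JNK pathway, had 15.7, 16.2, 15.97, 15.7 and 15.6 FPKM, a CV of 1.36%. Pcbp2, an RNA-binding protein, had 67.3 ± 1.09 FPKM (SD, n = 5). Actb and Gapdh, often taken as reference genes, varied more, with a CV of 31.9% and 20.7%.

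**Figure D4:**
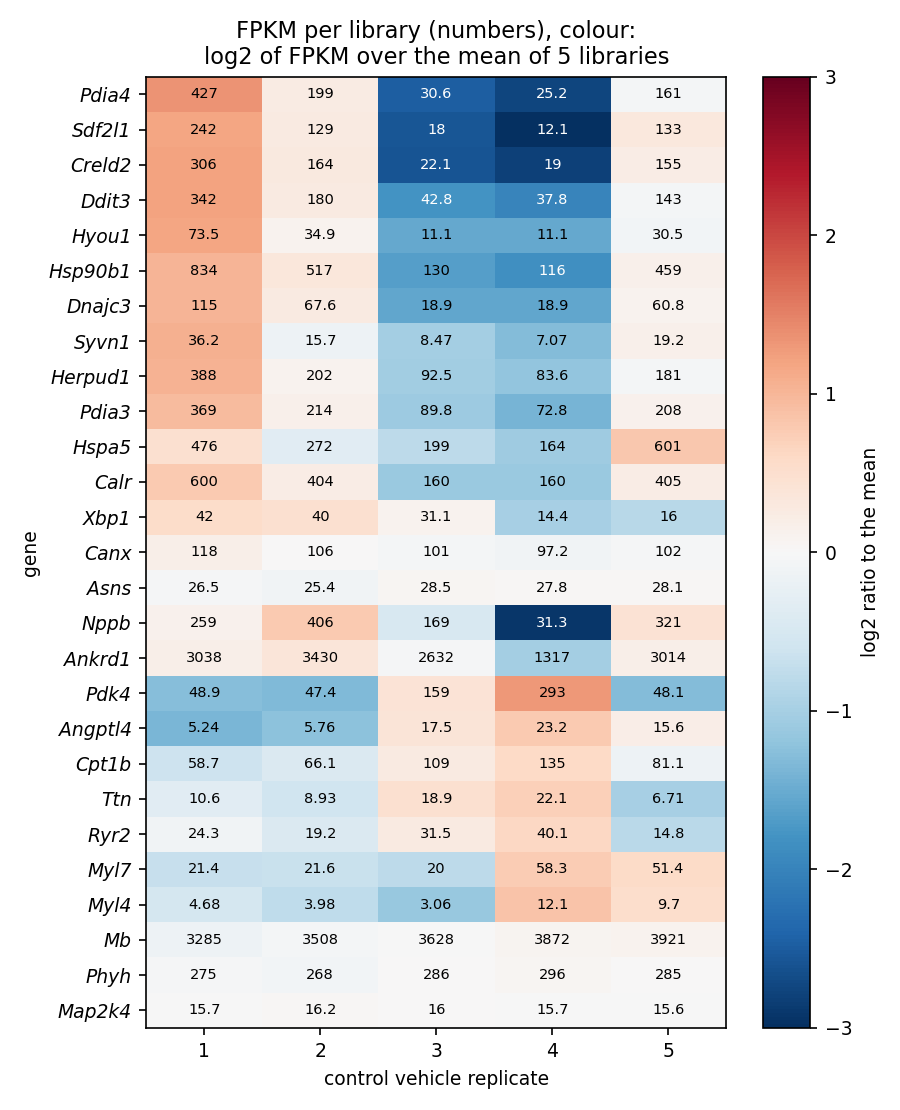
FPKM of selected genes (rows) in the 5 control vehicle libraries (columns). Numbers are FPKM and colours are log2 of FPKM over the mean of the 5 libraries, from blue (low) to red (high). Genes of the unfolded protein response from Pdia4 to Pdia3 are highest in replicate 1 and lowest in replicates 3 or 4, whereas Pdk4 is high in replicates 3 and 4.

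The transcript table held 11676 genes, of which 5995 had 1 listed transcript. Among 5552 genes with at least 2 listed transcripts and a summed mean of at least 1 FPKM, the leading transcript held a median of 72.6% of the sum. It held over 90% for 1282 genes and under 50% for 918. The same transcript led in all 5 libraries for 3207 genes, or 57.8%, and in 3 or fewer for 1261. This share was 37.5% for genes of 1 to 5 FPKM and 82.4% for those of 100 FPKM or more.

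Several of the most abundant muscle genes had 1 transcript ahead in all 5 libraries. Ankrd1, Fth1 and Cox6a2 had 1 listed transcript each, and Actc1-201 held 99.7% ± 0.101 of Actc1. Mb-203 held 82.2% ± 2.93 and Myl3-201 92.4% ± 2.76. Myl2-201 also led in all 5 libraries, with 65.8% ± 12.7 and 48.7% in replicate 4, whereas Myh6 and Tnnt2 changed leader. Of 20 genes known for cardiac splicing or regulation that were chosen for this purpose, 14 kept the same leading transcript in all 5 libraries. The share that did so was 57.8% over all 5552 genes and 71.6% for those of 20 to 100 FPKM. The count is thus not particular to these 20 genes.

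Atp2a2 is an example of a stable choice. Atp2a2-202, whose coding sequence of 2994 bases is that of the heart form SERCA2a, held 94.7%, 95.2%, 94.4%, 94.1% and 96.0%, and Atp2a2-201, with the longer coding sequence of 3132 bases of SERCA2b, the rest. Tpm1-205 held 87.6% ± 3.78 of tropomyosin and Slc8a1-201 98.2% ± 1.58 of the Na+/Ca2+ exchanger. Ryr2-201 held 90.1% ± 3.19 and Rbm20-204, of the splicing regulator of Ttn, 93.5% ± 3.32. Ldb3-203, a short form of the Z-disc protein Cypher with 8 exons, held 63.4% ± 1.65, and the long Ldb3-201 with 14 exons 19.8% ± 0.695 (SD, n = 5 each).

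Pyruvate kinase was present in both of its classical forms. Pkm-202, with the M1 exon (chr9:59675029-59675195), held 54.3%, 48.3%, 44.7%, 45.4% and 53.6%, and Pkm-201, with the M2 exon (chr9:59675568-59675734), 31.5%, 36.7%, 39.2%, 37.8% and 37.9%. Pkm-202 led in every library. The M1 form is the one known for muscle and the M2 form for growing and many non-muscle cells. Both exons have 167 bases and differ at 64 positions, shown in capitals here because the choice between them rests on these letters. They are from the GENCODE vM21 transcripts, GRCm38, plus strand.
M1 exon: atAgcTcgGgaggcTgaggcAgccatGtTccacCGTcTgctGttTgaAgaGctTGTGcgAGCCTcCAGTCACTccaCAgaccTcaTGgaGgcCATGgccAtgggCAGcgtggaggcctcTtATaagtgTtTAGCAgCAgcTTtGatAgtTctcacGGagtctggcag
M2 exon: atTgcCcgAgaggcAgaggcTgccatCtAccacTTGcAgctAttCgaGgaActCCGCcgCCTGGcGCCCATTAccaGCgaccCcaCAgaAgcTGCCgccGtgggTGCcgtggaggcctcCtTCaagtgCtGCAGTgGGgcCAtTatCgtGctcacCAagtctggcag

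Over the 2 listed transcripts that span this region, the M1 exon had a share of 57.3% ± 3.92 and the M2 exon 42.7% ± 3.92 (SD, n = 5). The difference between the exons was thus larger than their spread between libraries.

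Tnnt2 did not have a stable leader. Tnnt2-211 held 19.5%, 45.5%, 20.5%, 19.5% and 43.0% and Tnnt2-206 34.5%, 20.7%, 30.4%, 31.6% and 21.7%, so that Tnnt2-211 led in replicates 2 and 5 only. Tnnt2-201 held 25.6%, 13.3%, 25.8%, 25.3% and 14.6%, low where Tnnt2-211 was high. These last transcripts have the same coding length of 873 bases but 1064 and 1112 bases in all. The 12 listed transcripts differ, among other things, in small exons. Some are shown here in capitals with 12 bases of the neighbouring exons on each side, plus strand of chromosome 1.
Tnnt2 exon of 12 bases, chr1:135842015-135842026: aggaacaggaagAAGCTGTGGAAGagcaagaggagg
Tnnt2 exon of 30 bases, chr1:135843785-135843814: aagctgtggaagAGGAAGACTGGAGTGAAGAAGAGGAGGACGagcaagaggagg
Tnnt2 exon of 9 bases, chr1:135850379-135850387: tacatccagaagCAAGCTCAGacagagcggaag

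By exon, the exons of 9 and 30 bases had an SD of 1.35 and 1.33 percentage points, against 6.68 for the exon of 12 bases. The exon of 9 bases was in transcripts that held 84.9%, 85.1%, 82.4%, 82.2% and 83.8% of the spanning FPKM. The exon of 30 bases, which is known from foetal forms of troponin T, had 13.98%, 13.9%, 16.5%, 16.7% and 15.5%. The exon of 12 bases had 49.4%, 35.7%, 48.1%, 49.5% and 38.2%, and its lower values fell in the same libraries in which Tnnt2-211 led.

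Long genes had less certain assignments. Ttn-202, a short form of 16891 bases and 45 exons, held 58.3%, 54.9%, 48.5%, 43.4% and 51.9% of Ttn and led in all 5 libraries. Ttn-204, with 100404 bases and 312 exons, held 29.7%, 42.4%, 15.1%, 32.1% and 40.4%. Ttn-201, of 81843 bases, held 31.5% and 23.9% in replicates 3 and 4 and at most 0.0759% in the others. Since FPKM divides by length, the share of Ttn-202 in fragments is smaller than in FPKM.

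Camk2d also changed leader. Camk2d-205, of the Ca2+/calmodulin kinase of the heart, held 4.23%, 5.74%, 59.1%, 65.7% and 6.16%. Camk2d-201, a fragment of 896 bases, led in the libraries in which Camk2d-205 was low, with 31.4%, 34.4% and 26.9%.

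Several other abundant genes had more than 1 strong transcript. Myh6-201 and Myh6-205 share a coding length of 5814 bases and held 37.3% ± 5.32 and 34.5% ± 3.46, and a fragment of 542 bases, Myh6-207, held 28.0% ± 3.11. Atp5h-208 held 70.7%, 73.3%, 32.4%, 36.8% and 72.2% of its gene, and Atp5h-201 most of the rest. Gapdh-201 was at 0 in replicates 1, 4 and 5 and held 61.8% and 46.8% in replicates 2 and 3, while Gapdh-203 held 94.6%, 34.2%, 49.3%, 93.6% and 96.1%. Vegfa-201, of vascular endothelial growth factor, led steadily with 66.7% ± 3.99, and Lmna-201, of lamin A, with 87.1% ± 3.02.

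**Figure D5:**
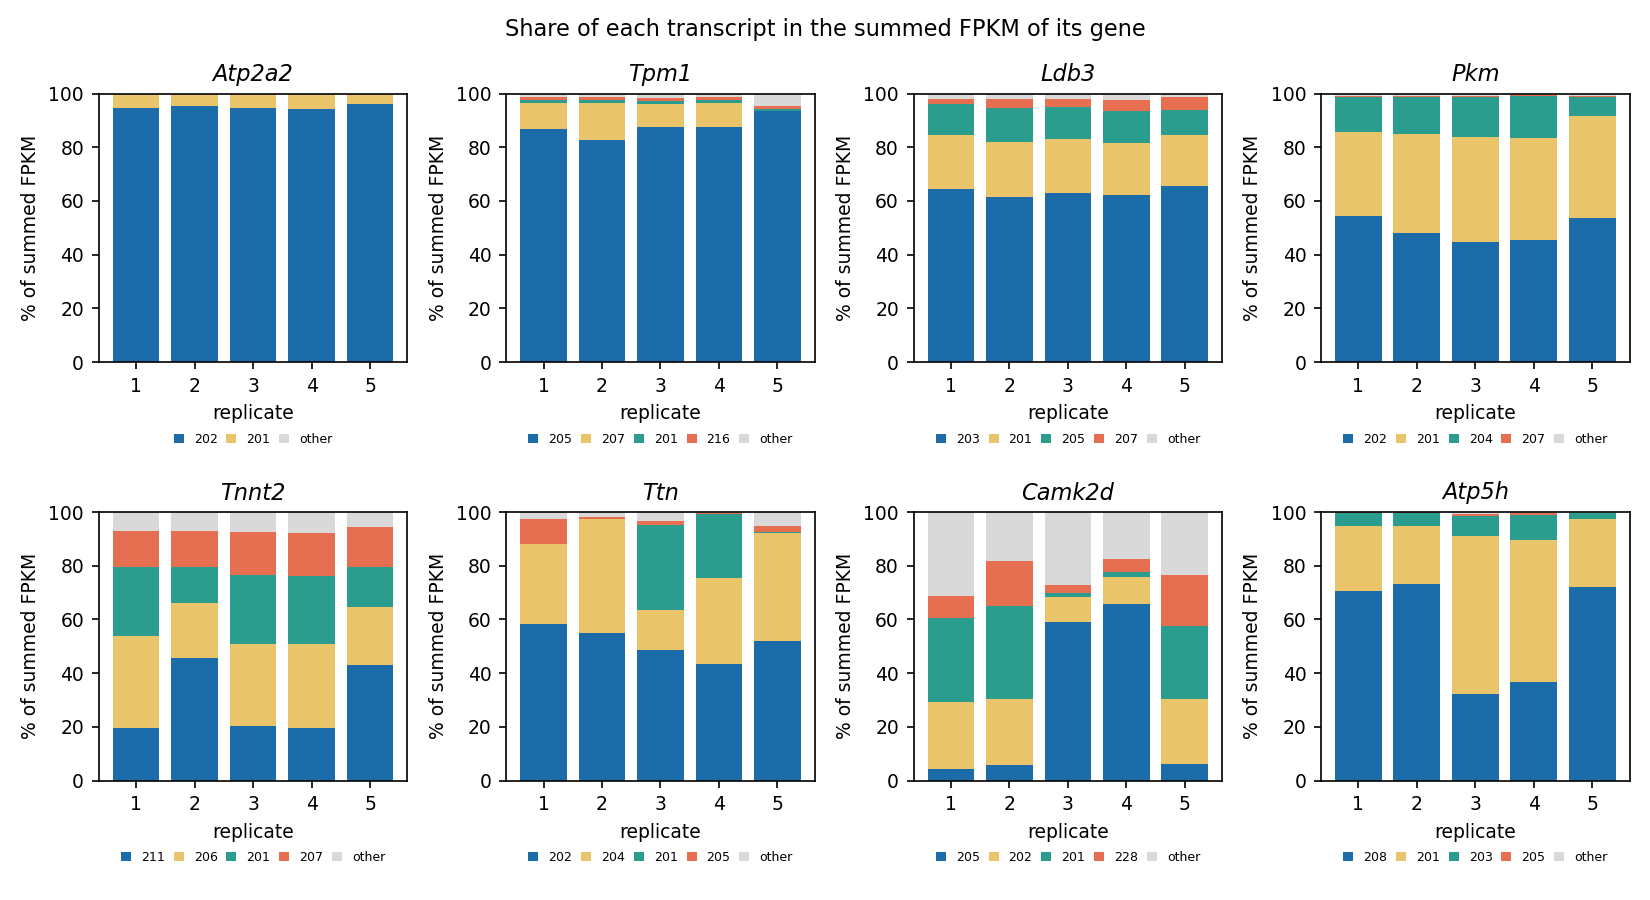
Percent of the summed transcript FPKM of a gene (y axis) held by its 4 leading transcripts and the others, in each control vehicle library (x axis, replicates 1 to 5), for 8 genes. Numbers in the legends are the transcript numbers. Atp2a2, Tpm1, Ldb3 and Pkm keep their leader in all 5 libraries, whereas Tnnt2, Camk2d and Atp5h do not, and Ttn-201 appears in replicates 3 and 4.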

How the data were processed

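Adult mouse cardiomyocytes were exposed to vehicle or linagliptin for 24 h, and polyadenylated RNA was sequenced in pairs of reads from a stranded library. The submitters' processing notes name FastQC 0.11.7, cutadapt, HISAT2 2.1.0, StringTie 1.3.3 and build GRCm38, and the study's methods add Ballgown. The authors deposited FPKM per gene and per transcript, kept where the mean reached 0.5 FPKM in at least 1 condition. The deposited tables hold no counts. The study states 1 depth for its RNA libraries, and totals per library were not used here. The files' columns of the 5 control vehicle libraries were used as deposited, and 1 empty line in each table was left out.

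Genes were ranked by mean FPKM. Shares are sums over fixed gene lists divided by the sum over all genes. Spread was taken over genes whose mean reached 1 FPKM and main transcripts over genes with at least 2 listed transcripts and a summed mean of at least 1 FPKM. No test between groups was run, since no groups are compared. Named were the 13 mitochondrial genes, the 30 highest nuclear genes, the 4 highest of each list with the defining markers of other cells, the 10 highest and 10 lowest by CV among genes of at least 10 FPKM, the 10 highest genes with a second transcript of at least 20% and the 10 highest with a changing leader, and 20 isoform genes. Not all of these are printed, and some genes are not reported here. The members and lists were chosen with earlier results of these data known, and other genes were named after their values were seen. The columns of the authors' own comparisons were not used. Lengths, exons and their sequences came from GENCODE vM21 (a length was found for 99.7% of transcripts), and promoters from RefSeq GRCm38.p6. Calculations used Python 3.11.15 with pandas 2.3.3 and NumPy 2.4.6 and were tested on simulated data. Dpp4 and other genes outside the tables were not analysed here.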

Additional observations from a re-analysis of the deposited data

Results flagged for a closer look

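Each of 37 list shares and 43 genes named by rank was examined for a library far from the other 4, by the gap to its nearest neighbour over the whole range, and 2 were flagged. Chance alone gives such a gap in about 1 of 20 groups. The share of FPKM in the Z-disc, M-band and costamere list was 1.98% in replicate 4, below the other libraries. Ankrd1, the highest gene of that list, had 1317 FPKM in replicate 4, against 2632 to 3430 in the others. The list of transcription factors, nearly all of it Ankrd1, was likewise lowest in replicate 4, at 0.530% against 0.916% to 1.12% in the others. The Z-disc share was not recomputed without Ankrd1, so the flag may rest on that gene and not on the list. Cox6a2, the muscle form of a cytochrome c oxidase subunit, had 1643 FPKM in replicate 5, above the 1327 to 1394 FPKM of the others.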

How the results depend on the processing

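No paired analysis was possible because no groups are compared. Leaving out each library in turn, ranking by the median, TPM scaling, the filters on low values for spread and isoforms, and a pseudocount of 0.1 were each run where they apply to the list shares, the ranked genes, the median CV, and the median share and constancy of leading transcripts, and moved none of these past the limit set for a change. The percent of genes with the same leader in every library was 57.8%, and 65.2% with a filter of 5 FPKM. Single isoform, exon and gene-pair shares and the 30 stress genes were not recomputed under these settings, except that the median CV of the stress genes was 44.6% without replicate 1, against 50.3% with it. How gene values are formed mattered more. With gene values summed from transcripts, the mitochondrial share was 27.8%, nuclear oxidative phosphorylation 7.89%, sarcomere genes 7.38%, fuel metabolism 5.80%, ribosomal proteins 6.21% and endothelial markers 0.129%, and 138 genes held 50% of the total. Without mitochondrial genes in the denominator, these nuclear lists took 10.2%, 8.32%, 8.08%, 7.14% and 0.149%. Counted as fragments, an alternative added after seeing the data, the shares were 16.3% for mitochondrial mRNAs, 4.11%, 7.10%, 6.67%, 2.89% and 0.151% for the nuclear lists in the same order, 475 genes held 50%, and 58 of the 100 highest genes stayed among the 100 highest. A filter of 5 FPKM on the list shares did move some past the limit. Endothelial markers of at least 5 FPKM held 0.0876%. It also moved 8 other lists or groups of lists, among them the matrix, fibroblast, smooth muscle and macrophage lists. Reads per gene and library are not in the tables used, so low values and the split between overlapping transcripts carry an error that only the 5 libraries show.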
